A study of Caenorhabditis elegans with 2 samples.

Results

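The genes described here are 10 synMuv B genes of Caenorhabditis elegans outside the DREAM complex, followed through a map of TRA-4 binding in early embryos. The genes are met-2, lin-65, hpl-2, lin-61, lin-13, lin-15B, lin-36, tam-1, ubc-9 and smo-1. They are given by name, as genes of related function, with no threshold on a measured value but with earlier results of these data known, and all 10 matched the annotation of 19973 protein-coding genes. For each gene, every deposited region was taken whose summit lay between 1 kb upstream of the annotated start and the end of the gene.

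Binding was mapped by sequencing of immunoprecipitated chromatin (ChIP-seq). Strain OP640 carries the transgene wgIs640, which encodes TRA-4 with a GFP-FLAG tag at its C-terminus, in the background unc-119(tm4063) III, and chromatin was precipitated through GFP. Both biological replicates came from whole early embryos of both sexes released by bleaching, so each value is an average over all cells of many embryos. With 1 group and 2 replicates there was no comparison between conditions, and no precipitation from untagged worms is analysed here. Each gene is therefore set beside all protein-coding genes in the same lists.

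SynMuv B genes are defined by the extra vulvae that form when they are lost together with a synMuv A gene. Many encode proteins that keep germline and signalling genes silent in somatic cells, through methylation of histone H3 at lysine 9 (H3K9), through heterochromatin proteins or through the DREAM repressor complex. TRA-4, a zinc finger relative of human PLZF, promotes female development. Of the genes here, met-2, lin-65, hpl-2, lin-61 and lin-13 belong to the H3K9 and heterochromatin branch. The genes lin-15B and lin-36 encode proteins with THAP-type zinc fingers, and tam-1 encodes a RING finger and B-box protein. The last pair, ubc-9 and smo-1, encode the conjugating enzyme and the modifier of the SUMO pathway and are neither heterochromatin proteins nor zinc finger proteins.

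None of the 10 genes had a region in the final set. That set holds the 394 regions that passed the irreproducible discovery rate (IDR), a filter on how alike regions rank in the replicates, and they are the 394 strongest of the pooled list by signal. A count of 0 of 10 allows a share of up to 30.8% (exact 95% limit, counting error only), and 1.90% of all protein-coding genes had an IDR summit in the same window, so a count of 0 cannot be told from the background with 10 genes. IDR summits were 3688 to 483666 bp from the starts of the genes, with a median of 49831 bp, against 102233 bp over all protein-coding genes. The nearest was the peak of rank 113 (III, 10758978 to 10759457 in ce11), 3688 bp upstream of hpl-2, and its summit lay 89 bp upstream of another gene, tasp-1. The IDR peak of rank 168 lay 9709 bp downstream of the start of ubc-9, beyond the gene, with its summit at -238 bp from jmjd-1.2, which encodes a histone demethylase.

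In the relaxed lists, which hold background together with enriched regions, the genes had 43 regions in all. The pooled list of 9660 regions had 11 of them, at 6 of the 10 genes, against 28.8% of all protein-coding genes. The list of replicate 1, with 19062 regions, had 19 and reached all 10 genes (46.3% of protein-coding genes), and that of replicate 2, with 13957 regions, had 13 at 6 genes (37.3%). Longer windows catch more background, and the windows of these genes had a median of 5363 bp against 3027 bp for all protein-coding genes. Per length, the 10 windows held 1.89 pooled summits per 10 kb (exact Poisson 95% interval 0.944 to 3.38), against 1.07 over all protein-coding windows. The same density was 3.27 (1.97 to 5.10) against 2.06 in replicate 1 and 2.23 (1.19 to 3.82) against 1.52 in replicate 2. In all 3 lists the density of all genes lay inside the interval, so a difference in density was not detectable with 10 genes. Overlapping regions were counted separately, so these intervals are too narrow. By share of genes, the exact 95% interval was 26.2% to 87.8% in the pooled list and in replicate 2, which holds their values of all genes. In replicate 1 it was 69.2% to 100%, above 46.3%, but shares are not corrected for window length. Not one of the 43 regions had a tRNA, snoRNA or snRNA start within 500 bp. The share of all listed regions with such a start was not computed, so this count has no background beside it. A place present in more than 1 list is counted once per list.

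**Figure D1:**
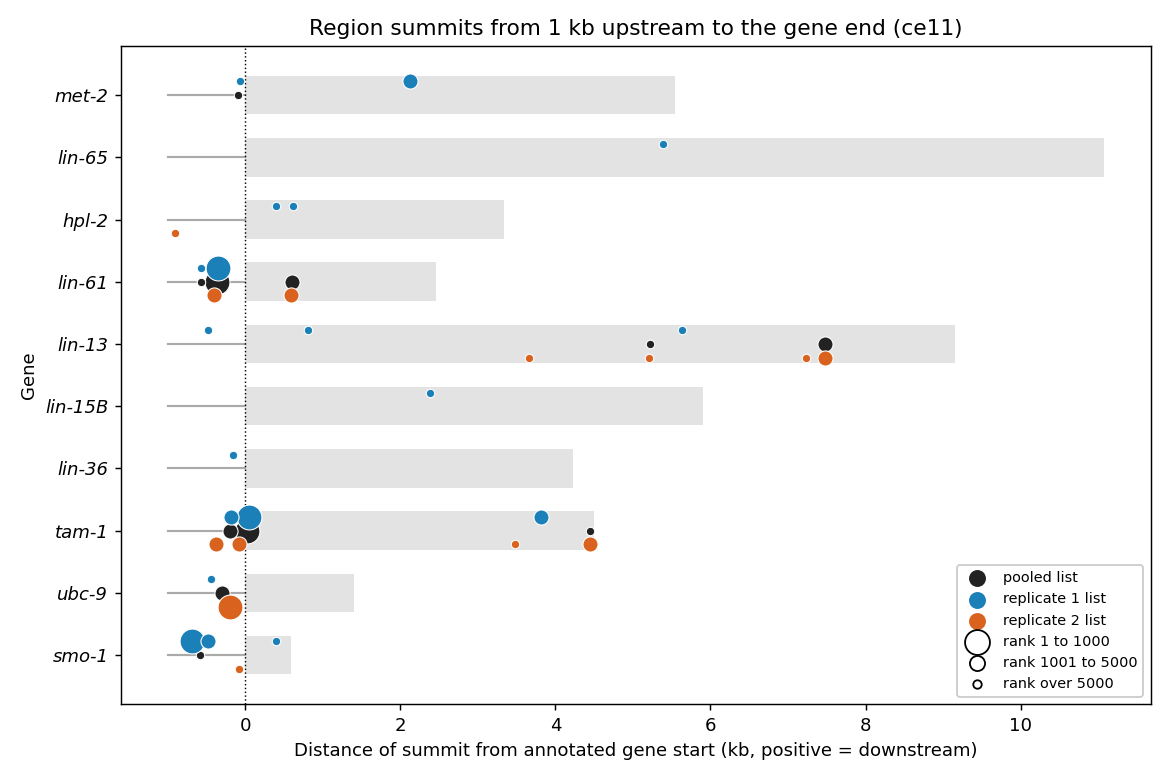
Summits of all 43 regions at the 10 genes, by distance in kb from the annotated start (dotted line). Grey bars are gene bodies, grey lines the 1 kb upstream, colours the lists and marker sizes the rank within the list. The regions ranked 1000 or better lie upstream or at the start of lin-61, tam-1, ubc-9 and smo-1, and lin-65, lin-15B and lin-36 have 1 weak region each, in replicate 1.

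The summits were unevenly placed along the genes. In the 1 kb before the starts there were 6 pooled summits, or 6.0 per 10 kb (2.20 to 13.1), against 1.30 over all protein-coding genes. The gene bodies held 5, or 1.04 per 10 kb (0.337 to 2.42), against 0.994. By gene, 5 of 10 had a pooled summit in the 1 kb upstream (lin-61, met-2, tam-1, ubc-9 and smo-1), against 11.9% of protein-coding genes, and 4 of 10 had one within 500 bp of the start on either side, against 12.3%. The value of all genes lay below the upstream interval and inside that of the bodies. The 32 related pathway genes described last also stood above all genes upstream, at 3.75 per 10 kb (1.94 to 6.55), so the upstream value was not shown to be particular to the 10 genes. In their gene bodies these 32 held 1.57 per 10 kb (1.02 to 2.30), with the value of all genes just below the interval. Overlapping regions at lin-61 are counted separately in the density, so the upstream interval is too narrow. The upstream region of tam-1, at rank 1496, overlaps the one of rank 819 whose summit is counted in the gene body. Several upstream summits were weak, at ranks 6968 (met-2), 8285 (smo-1) and 8525 (the second at lin-61) of 9660. The split into upstream and body was added after the values were seen, and the regions at lin-61 lay nearer to another gene's start.

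**Figure D2:**
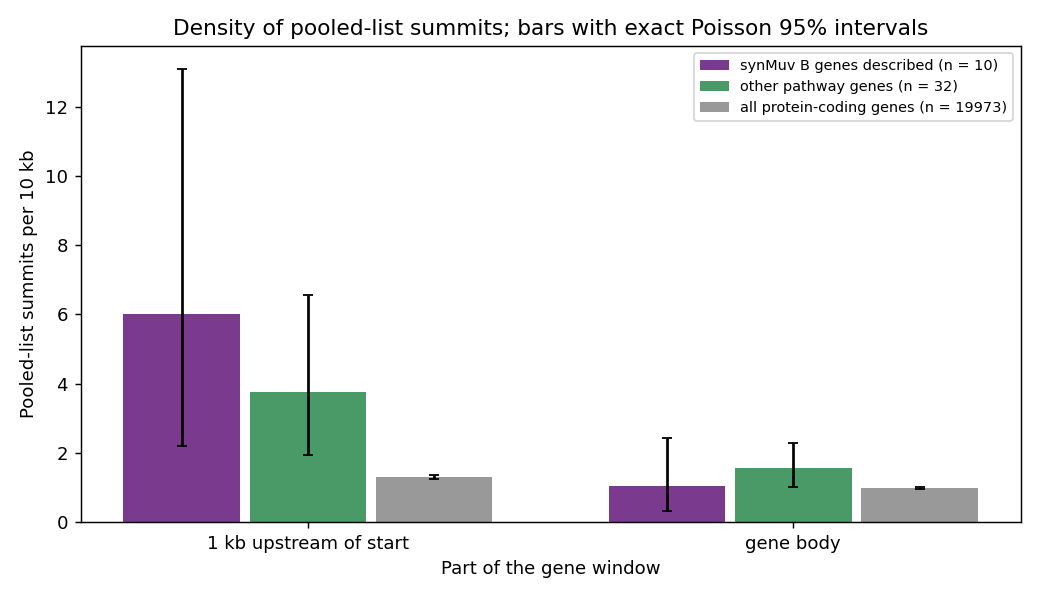
Pooled-list summits per 10 kb in the 1 kb upstream of starts and in gene bodies, for the 10 synMuv B genes, 32 other pathway genes and all 19973 protein-coding genes. Bars are densities and error bars exact Poisson 95% intervals. Upstream the 10 genes stand at 6.0, the 32 pathway genes at 3.75 and all genes at 1.30. In gene bodies the values are 1.04, 1.57 and 0.994 in the same order.

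Among the 1000 strongest regions of a list, 2 of the 10 genes had a summit in the pooled list (lin-61 and tam-1, against 4.41% of protein-coding genes). In replicate 1 it was 3 genes (lin-61, tam-1 and smo-1, against 4.40%), and in replicate 2 it was ubc-9 alone (4.43%). No gene of the 10 was in the first 1000 of both replicates, against 2.37% of protein-coding genes. With 10 genes a count of 0 cannot be told from that share, and it rests on the limit: lin-61 ranked 410 and 1076 in the replicates and tam-1 250 and 1484. Over all protein-coding genes, 54.0% of those with such a region in replicate 1 also had it in replicate 2, and 53.6% the other way round. A pooled region that overlapped a region in each replicate was present at 4 of the 10 genes (lin-61, lin-13, tam-1 and ubc-9), against 19.6% of protein-coding genes. By region, 7 of the 11 pooled regions did so, where 63.2% of all 9660 pooled regions did. The pooled list was made from these same replicates, so its overlaps and close summits with either of them are not independent support.

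**Figure D3:**
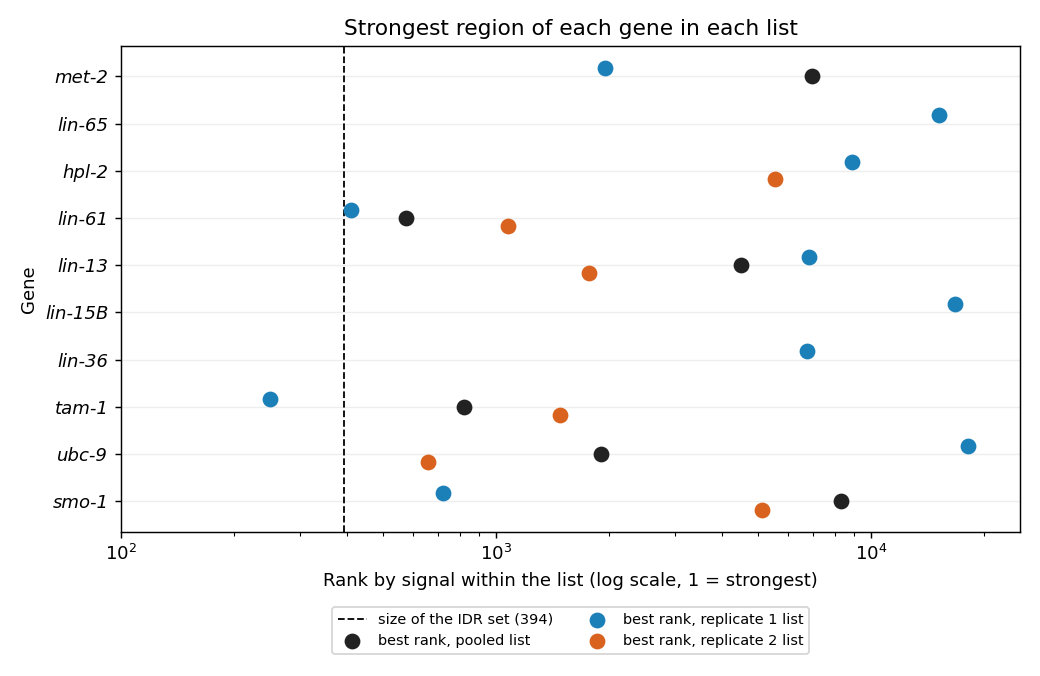
Rank by signal of the strongest region of each gene in each list, on a log axis where low ranks are strong. The dashed line marks 394, the number of regions in the IDR set. Only tam-1 in replicate 1, at rank 250, lies to its left, and no pooled rank does. For met-2, lin-13, hpl-2 and smo-1 the strongest regions of the lists do not all lie at the same position in or upstream of the gene.

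The heterochromatin branch starts with met-2 (III, 8375300 to 8380848, plus strand), which encodes the methyltransferase for mono- and dimethylation of H3K9. Its pooled region was weak, at rank 6968 with a signal of 48.2 (8374969 to 8375448), and its intergenic summit lay 91 bp upstream of the start. Replicate 1 had a region 22 bp away at rank 12807, and replicate 2 had none in the window. The stronger met-2 region of replicate 1, at rank 1957 (8377180 to 8377679, signal 29.6), lay in an intron 2130 bp downstream and overlapped nothing in the other lists. No other start was nearer than that of met-2 to either region, the nearest being lmbr-1 at 2954 bp and R05D3.12 at 3515 bp. The sequence around the pooled summit is shown because it is the weak upstream region that the replicates did not share. It is chrIII:8375173-8375259 of ce11, plus strand, with the 11 bases around the summit in capitals, and its GC content was 26.4% over the 87 bases, where the median of the 101 bases around all pooled summits was 39.6%.
met-2: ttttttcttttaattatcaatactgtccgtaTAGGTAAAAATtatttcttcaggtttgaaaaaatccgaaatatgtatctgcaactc

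The next pair gave less. For lin-65 (I, 1755329 to 1766400), which encodes a partner protein of MET-2, the only region in the window was in replicate 1, at rank 15141 of 19062, in an intron 5389 bp from the start. Beyond the end of the gene, at 563 bp, there was a pooled region of rank 5935 with matching regions in both replicates, whose nearest start was that of ddx-27, 924 bp away. For hpl-2 (III, 10752195 to 10755530, minus strand), a homologue of heterochromatin protein 1, the pooled list had no region. Replicate 1 had weak regions at rank 8878, in an intron, and at rank 16711, in a coding exon. Replicate 2 had a region at rank 5528, 903 bp upstream in an intron of the neighbouring gene rnf-113. The regions of replicate 1 overlapped each other but not that of replicate 2, so no hpl-2 region was shared by the replicates.

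The strongest region of the group in the pooled list was at lin-61 (I, 7248827 to 7251282, minus strand), whose product has MBT repeats that bind methylated H3K9. It ranked 576 of 9660 in the pooled list (7251413 to 7251892, signal 89.8, q-value 0.0617), 410 in replicate 1 (signal 43.2, q-value 0.0281) and 1076 in replicate 2 (signal 49.0, q-value 0.239). The weakest IDR region had a signal of 101.6 in the pooled list, so this region fell short of the set in the pooled ranking, and in each replicate it ranked past 394. The intergenic summit lay 371 bp upstream of lin-61, and the summits of the replicates were 23 and 36 bp from it. It was nearer to bub-1, a gene for a spindle checkpoint kinase that starts 659 bp away on the opposite strand, with its summit 288 bp upstream of that start. A weaker region at rank 8525 overlapped it, with its summit 88 bp from bub-1. The peak therefore cannot be assigned to lin-61 over bub-1. A further pooled region at rank 3645 (7250444 to 7250923, signal 56.6) had its summit in a coding exon of lin-61, 598 bp downstream of the gene start but 132 bp downstream of the start of the shorter transcript R06C7.7a.1. In replicate 2 the same region ranked 1450, with a summit 5 bp away, while replicate 1 had no region there.

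At lin-13 (III, 7700338 to 7709491, minus strand), which encodes a protein with many zinc fingers that binds HPL-2, the regions lay inside the gene. The stronger pooled region ranked 4505 (7701773 to 7702252, signal 53.9), with its summit in a coding exon 7478 bp from the start. Replicate 2 had it at rank 1766 with a summit 1 bp away, and replicate 1 had no region there. The weaker, at rank 9134, was also in a coding exon, 5218 bp from the start, and overlapped regions of rank 18741 in replicate 1 and rank 10020 in replicate 2. That overlap with replicate 1 was loose, since its summit was 419 bp from the pooled one, and without this region no lin-13 region was shared by the replicates. Within 500 bp of the start there was a region in replicate 1 only, at rank 6826 and 476 bp upstream. The nearest other start to the pooled summits was that of the snoRNA gene C03B8.5, at 4998 and 2738 bp. The sequence at the stronger summit is shown as the example of a coding position that 1 replicate placed to within 1 bp of the pooled summit. It is chrIII:7701963-7702063 of ce11, given on the minus strand as the gene reads, with the 11 bases around the summit in capitals and 48.5% GC.
lin-13: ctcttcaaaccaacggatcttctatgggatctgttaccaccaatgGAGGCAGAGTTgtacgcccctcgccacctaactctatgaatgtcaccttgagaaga

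The THAP-type genes had no pooled region in their windows. For lin-15B (X, 15726123 to 15732025, plus strand), which encodes a repressor of germline genes, the only region was in replicate 1 at rank 16719, in a coding exon 2382 bp from the start. Past its end, a pooled region of rank 1969 (15732036 to 15732515, signal 65.1) lay 308 bp inside the synMuv A gene lin-15A, which follows lin-15B on the same strand. It ranked 984 in replicate 2 and overlapped a region whose rank was 17220 in replicate 1. For lin-36 (III, 8016648 to 8020873, minus strand), the only region was in replicate 1 at rank 6727 (8020785 to 8021284), 162 bp upstream. Its summit lay in the noncoding RNA gene F44B9.11, 72 bp from that gene's start, which was nearer than the start of lin-36. Past the end of lin-36, by 766 bp, a weak pooled region ranked 7201, with its summit in an intron of F44B9.5, 656 bp from that gene's start. It overlapped regions of rank 18000 in replicate 1 and rank 12519 in replicate 2. Replicate 2 had no region in the window of lin-15B or lin-36.

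The tam-1 gene (V, 4958603 to 4963102, minus strand) had its stronger regions at its own start, with no competing start close by. TAM-1 was named for its effect on tandem-array transgenes, which are silenced when it is lost. The stronger pooled region ranked 819 (4962842 to 4963321, signal 81.0, q-value 0.135), with its summit 20 bp downstream of the start, in the 5′ UTR. In replicate 1 the matching region ranked 250 (signal 51.2, q-value 0.00601), with its summit 54 bp downstream. In replicate 2 it ranked 1484 (signal 45.6, q-value 0.348), with its summit 76 bp upstream. Replicate 1 alone would thus have placed tam-1 among its 394 strongest regions, and replicate 2 would not. A flanking pooled region ranked 1496 (4963056 to 4963535, signal 69.5), with its summit 194 bp upstream, and the matching region of replicate 1, 179 bp upstream, ranked 3019. In replicate 2 a second region, at rank 3014 (4963246 to 4963715), overlapped this flanking region more loosely, with its summit 379 bp upstream. The nearest other start, of the chemoreceptor gene str-208, was 6253 bp from the stronger summit. At the other end of tam-1 a pooled region of rank 8059 had its summit in the 3′ UTR, and it flanked a stronger region of rank 866 (signal 80.0) whose summit lay 151 bp past the gene's end, in a coding exon of str-208. That region ranked 5528 in replicate 1 and 780 in replicate 2, the reverse order of the replicates at the start of the gene. Weaker regions lay in coding exons, at rank 2579 in replicate 1 (3817 bp downstream) and rank 11018 in replicate 2 (3474 bp downstream), and these and the 3′ UTR regions were nearer to the start of str-208 than to that of tam-1.

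The 250 bases before the tam-1 start are shown because no other start competes for this region. They are chrV:4963103-4963352 of ce11, on the minus strand as the gene reads. Capitals mark 11 bases around the flanking pooled summit, to the left, and around the replicate 2 summit of rank 1484, to the right.
tam-1: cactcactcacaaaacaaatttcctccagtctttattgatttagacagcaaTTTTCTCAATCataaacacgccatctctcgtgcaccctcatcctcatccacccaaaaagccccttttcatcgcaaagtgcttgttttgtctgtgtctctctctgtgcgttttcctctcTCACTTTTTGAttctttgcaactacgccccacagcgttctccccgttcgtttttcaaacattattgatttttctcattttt
On the gene strand 68.4% of these bases were C or T, against a median of 55.2% over the same stretch of all protein-coding genes, and 1.99% of those genes had a share at least as high. The short sequence GAGAGA, in the reverse orientation, occurred at 4 positions, 2 of which overlap. One of these lay within 50 bp of the flanking summit, the only match among the 11 pooled regions, where 7.72% of all pooled regions held it.

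The SUMO genes ranked differently in the replicates. For ubc-9 (IV, 4651044 to 4652447, plus strand), which encodes the enzyme that attaches SUMO, the pooled region ranked 1906 (4650499 to 4650978, signal 65.6), with an intergenic summit 305 bp upstream. In replicate 2 it ranked 660 (signal 55.3, q-value 0.0872), with its summit 198 bp upstream. In replicate 1 the overlapping region ranked 18098 of 19062 (signal 16.0), and its summit, 444 bp upstream, lay in a coding exon of the neighbouring gene F29B9.7. The start of F29B9.7 was 979 bp from the pooled summit, so that of ubc-9 was the nearer. For smo-1 (I, 1340678 to 1341265, plus strand), which encodes SUMO, the order was the opposite. Replicate 1 had a region at rank 723 (1339741 to 1340240, signal 37.2, q-value 0.106), 687 bp upstream, while the pooled region there ranked 8285 (signal 45.9) and replicate 2 had no region overlapping it. The smo-1 region of replicate 2 lay 81 bp upstream at rank 5127. A second region of replicate 1, at rank 4990 (1339949 to 1340448), overlapped both the pooled region and that of replicate 2, with its summit 398 bp from the latter. The nearest other start, of K12C11.7, was 1307 bp from the pooled summit. No position upstream of smo-1 was thus listed by all 3 relaxed lists.

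The stretch upstream of ubc-9 is shown because its summits in the pooled list and in replicate 2 were 107 bp apart. It is chrIV:4650689-4650896 of ce11, plus strand, with 11 bases around each summit in capitals, the pooled one first, and 43.3% GC.
ubc-9: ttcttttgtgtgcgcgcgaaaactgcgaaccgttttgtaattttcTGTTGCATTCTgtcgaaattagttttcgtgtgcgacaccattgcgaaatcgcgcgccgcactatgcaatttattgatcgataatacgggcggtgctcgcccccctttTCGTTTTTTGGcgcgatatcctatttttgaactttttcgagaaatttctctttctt

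The short sequences searched at the pooled summits of these genes, on both strands, were not uniform. The CHR element TTTGAA, which DREAM targets often carry, was found within 50 bp of 4 of the 11 summits (23.3% of all pooled regions), at lin-61, met-2, lin-13 and tam-1. In the 300 bases from 250 before to 50 after the start it was present in 9 of the 10 genes, all but lin-36, against 62.5% of protein-coding promoters. The E2F sequence TTCCCGCC was at none of the 11 summits (0.631% of pooled regions) and in none of the 10 promoters (1.10%). The B box sequence of tRNA genes, GTTCNANNC, was at 1 summit, tam-1 (4.75%), and in 2 promoters, hpl-2 and tam-1 (8.74%). GAGAGA was in 5 promoters (21.8%), of lin-61, lin-13, tam-1, ubc-9 and smo-1. A match is a description of the letters only, and overlaps between the sequences were not removed. The GC content within 50 bp of the 11 summits ranged from 25.7% at met-2 to 50.5% at lin-13. The median was 39.6% for all pooled regions, inside that range, and 49.5% for IDR regions.

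The related pathways, 32 genes in 6 lists, included genes with IDR peaks. In all, 2 of the 32 had an IDR summit in the same window, against the 1.90% of all protein-coding genes. A pooled summit was present at 21 (65.6%, against 28.8%), and 9 had a pooled summit among the first 1000, against 4.41%. These shares grow with window length, which was not matched to that of all genes. Per length the 32 windows held 1.92 pooled summits per 10 kb (1.36 to 2.64), against 1.07 over all protein-coding windows. That was close to the 1.89 of the 10 genes. The strongest was at lem-2, from the list of other heterochromatin genes, which encodes an inner nuclear membrane protein at the nuclear periphery. Its peak ranked 57 in the IDR set (signal 225.2), 45 in replicate 1 and 56 in replicate 2, with an intergenic summit 190 bp upstream and no other coding start within 2 kb. Of the other 5 genes in that list, set-25 had a pooled region at rank 2537 and hpl-1, set-32, arle-14 and cec-4 had none. In the DREAM list, 6 of 8 had a pooled summit, among them lin-35 in the IDR set at rank 127, lin-52 at rank 409, lin-53 at rank 515 and lin-54 at rank 547. The summit near lin-54 was 77 bp from the start of the ribosomal protein gene rpl-12, against 316 bp from lin-54, and the lin-35 summit was likewise nearer to vps-51. The lin-53 summit lay 221 bp from lin-53 and 246 bp from nra-2. The synMuv C list, genes of a histone acetyltransferase complex, had 3 of 4, namely epc-1 at rank 666, ssl-1 at rank 716 and trr-1 at rank 864. The epc-1 summit lay in a coding exon of that gene, 3812 bp downstream of its start. The ssl-1 summit was intergenic, 422 bp upstream. The trr-1 summit was also intergenic, 133 bp from trr-1 and 246 bp from C47D12.2. In the list of other synMuv B and NuRD genes it was 2 of 3, with the region of rank 883 in the window of hda-1, 954 bp upstream of hda-1 and 306 bp from ril-1, inside the noncoding RNA gene C53A5.18, whose start was nearer, at 65 bp. The synMuv A list had 3 of 4 and the SUMO list 5 of 7, none of them among the first 1000.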

How the data were processed

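The data were ChIP-seq region lists from 2 biological replicates of 1 group. The ce11 lists were used: a relaxed list per replicate, a relaxed list on the pooled replicates and the final IDR set. The authors deposited a signal value and the −log10 of a q-value per region, and no p-value; the lists derive from alignments with a control, per the file descriptions deposited with them. The sources used here name no peak caller, aligner or IDR cutoff. Depth is unknown, since read counts are not analysed here. Regions were ranked by signal inside each list, with ties broken by position.

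Gene starts, types and exons came from Ensembl release 115 (WBcel235, the same assembly as ce11), and sequences from the RefSeq genome of that assembly. Coordinates are 1-based. Overlap meant 1 bp or more. Counting was tested on simulated summits placed in known genes. No test between conditions or on gene sets was run. Shares have exact binomial and densities exact Poisson 95% intervals, which cover counting error only, and genes are not replicates. Python 3.11.15, NumPy 2.4.6 and SciPy 1.17.1 were used. The genes, pathway lists and short sequences were chosen with earlier results of these data known. The rule for named genes took all 10 genes, the gene with the nearest competing start, and pathway genes with an IDR summit or a pooled rank of 1000 or better. Other pathway genes named (set-25, hpl-1, set-32, arle-14, cec-4), the regions past gene ends and the C or T share were added after their values were seen. Sequences on chromosome I are not reported here. The ce10 lists were not used here.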

Additional observations from a re-analysis of the deposited data

How the results depend on the processing

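The count of 0 genes in the IDR set did not change with a window from 2 kb upstream (2.30% of protein-coding genes) or with any overlap (2.24%). A window of 500 bp around the start, the gene body alone and the stronger part of the list search only inside the main window or list. From a count of 0 they could give only 0, so they cannot test it. Of 36 alternative values, 29 stayed within 1.5 times the main count, or for the density inside its counting interval, and 7 did not. The 29 include the alternatives that could give only 0. With the gene body alone, the genes with a summit went from 6 to 3 in the pooled list, from 6 to 3 in replicate 2 and from 4 to 2 for regions overlapping both replicates. The shares of all protein-coding genes also fell, from 28.8% to 20.7%, from 37.3% to 27.8% and from 19.6% to 13.4%. At a q-value under 0.05 the pooled count was 0, against 2.52% of protein-coding genes, a share that 10 genes cannot tell from 0. Leaving out a replicate gave 6 to 10 genes in place of the pooled 6 (10 without replicate 2, where the longer list of replicate 1 stands alone). The matching shares of protein-coding genes were 37.3% without replicate 1 and 46.3% without replicate 2. Asking a pooled region to overlap replicate 2 alone gave 4 genes (24.9% of protein-coding genes), and replicate 1 alone 6 (23.8%). There the pooled list still came from both replicates and the requirement was only relaxed. The overlap count could thus not fall below 4, and no replicate was left out of it. The density of summits was 6.0 per 10 kb in the 1 kb upstream alone, an alternative added after seeing the data, against 1.89 in the whole window. For the 32 other pathway genes the count went from 21 to 13 within 500 bp of the start. Over all protein-coding genes that share went from 28.8% to 12.3%. For these 7 values the alternative's own construction changes the length searched, the regions kept or the replicate used. No paired analysis was possible because the series has 1 group. Relaxed lists hold background, depth is unknown, and 10 genes limit every share.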
